A study of Homo sapiens with 18 samples.

Results

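The transcripts of G-K562 cells were set directly against those of B-K562 cells, so that a line expressing BASP1-G2A was compared with a line expressing wtBASP1. K562 is an established human erythroleukemia line from chronic myeloid leukemia in blast crisis. B-K562 cells carried an expression construct for wild-type BASP1 (wtBASP1), and G-K562 cells carried one for BASP1-G2A, in which the glycine that receives the N-terminal myristoyl lipid is replaced by alanine. Both were pools of stably transfected cells kept under G-418 selection, 1 line for each protein, and V-K562 cells carried the empty vector. The 6 libraries compared were the 3 B-K562 and 3 G-K562 libraries, of 9 RNA-seq libraries and 18 libraries in all. The replicates were cultures of the same line, so the p-values measure the spread between cultures and not between independently made lines. A difference between the lines therefore cannot be told apart from a difference between these particular transfected pools. Of 28395 genes listed, 15061 had a normalized count of 10 or more in at least 3 of the 6 libraries and were tested. Among them, 856 had fewer than 10 in every library of one of the lines. Such genes passed only through the line in which they were high, and they had to differ.

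BASP1 is a small, acidic protein of growing neurites and of the nucleus that is N-myristoylated after removal of its first methionine. In the nucleus it acts as a corepressor of the Wilms' tumor protein WT1, a zinc finger transcription factor, and it recruits histone deacetylases and binds the lipids PIP2 and cholesterol. K562 cells resemble early erythroid cells and transcribe embryonic and fetal globins, with a capacity to take on megakaryocytic or monocytic features. The direct comparison asks how the transcriptome differs when the BASP1 that is present cannot carry its lipid.

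The 6 libraries had 29545279 to 37043569 reads on genes, estimated from the spacing that rounding left in the deposited values. B-K562 values come from a table normalized apart from that of the G-K562 values. They were multiplied by 1.017, the ratio between the tables of the V-K562 libraries that both hold, and are therefore not whole numbers. Among 11290 genes with a mean of at least 100, the median SD of log2 values between cultures was 0.048 among B-K562 libraries, against 0.085 among those of G-K562. The defining transcripts of K562 cells were present in both lines. ABL1, the kinase gene of the BCR-ABL1 fusion, ran from 10447 to 10765 across B-K562 libraries and from 9474 to 11388 across G-K562 libraries. The summed level of 11 K562 markers was 233606 to 237925 in B-K562 libraries and 81126 to 87015 in G-K562 libraries, and 8 of them were lower in G-K562 cells. The markers of other cell types were low or present in both lines. The B cell gene MS4A1, the macrophage genes C1QA and C1QB, the fibroblast gene FAP and the basal keratin gene KRT14 were at 0 in all 6 libraries.

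BASP1 itself (Entrez 10409, chromosome 5, 17216823 to 17276845, GRCh38) was read first, as the check that both expressing lines are set apart from V-K562. B-K562 libraries held 6965, 6730 and 6294 normalized counts of it and G-K562 libraries 9323, 12538 and 8124, against 7, 5 and 7 for V-K562. Both expressing lines were far above the vector line, every G-K562 library was above every B-K562 library, and G-K562 replicate 2 was the highest. Counts per gene do not tell wtBASP1 from BASP1-G2A, so which line carries which protein rests on the sample titles. The log2 difference of 0.56 (standard error 0.12, adjusted p = 0.0017) was a 1.48-fold higher level of BASP1-G2A than of wtBASP1 transcript. The amount of transcript therefore differs between the lines along with the protein's sequence, and the part of dose in the differences that follow was not tested.

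With calls made at 2-fold or more and an adjusted p up to 0.05, 2606 genes (17.3% of those tested) were higher in G-K562 cells and 1870 genes (12.4%) were lower, 29.7% in either direction. The median over all genes was -0.03 on the log2 scale. Large differences were more often increases: 188 genes were at least 16-fold higher and 113 at least 16-fold lower. By the adjusted p alone, 38.8% of genes were higher and 41.6% lower, and for 82.2% no library of one line reached into the range of the other. A shift of most members of a list must be read against this broad background. A count of called members must likewise be read against the 17.3% called higher and 12.4% called lower. Calls were denser among genes of low level, with 33.2% higher and 18% lower in the lowest quartile of mean level against 7.28% and 9.19% in the highest. Both the 16-fold counts and the lowest quartile include genes under 10 in every library of one line, which had to differ. With 10 or more required in all 6 libraries, 1734 genes were higher and 1443 lower. Log2 differences are on the log2(value + 1) scale, which understates the change of low genes, and bulk values cannot tell fewer expressing cells from less RNA per cell.

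**Figure D1:**
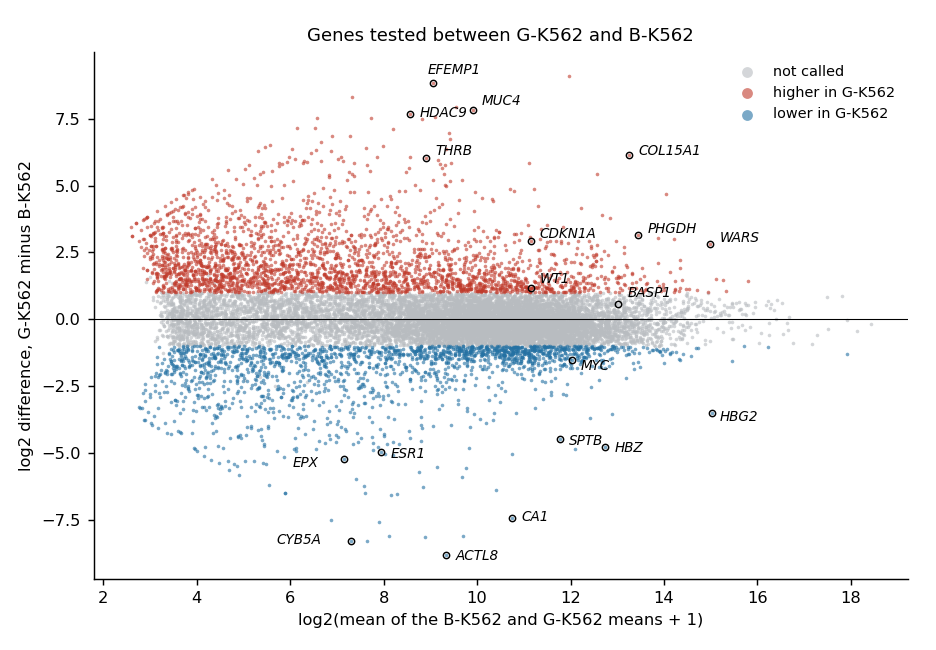
Each point is 1 of the 15061 genes tested, with the log2 of the mean level of the lines plus 1 on the x axis and the log2 difference between G-K562 and B-K562 cells on the y axis. Red points are the 2606 genes higher in G-K562 cells, blue points the 1870 lower, and grey points were not called. EFEMP1 and HDAC9 stand near the top, and ACTL8, CYB5A and CA1 at the bottom.

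The largest increases were in genes that B-K562 cells barely transcribed. EFEMP1 (Entrez 2202, chromosome 2, 55865962 to 55924163), for the matrix protein fibulin-3, was at 0, 3.1 and 2 in B-K562 and at 960, 1160 and 1046 in G-K562 libraries. Only the G-K562 libraries held it at a level well above a handful of reads, since V-K562 values were 5, 3 and 11. HDAC9 (Entrez 9734, chromosome 7, 18086942 to 18999521), a class IIa histone deacetylase gene, was at 1, 3.1 and 5.1 in B-K562 and at 756, 740 and 759 in G-K562 libraries. This was a log2 difference of 7.68, with V-K562 values of 9 in all 3 libraries.

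The mucin gene MUC4 was at 9.2, 7.1 and 6.1 in B-K562 and 2108, 1531 and 2075 in G-K562 libraries. The chromatin remodelling gene CECR2, whose product carries a bromodomain, was at 5.1, 4.1 and 6.1 in B-K562 and 1638, 1224 and 1622 in G-K562 libraries. The carboxypeptidase gene CPZ and the osteoclast-associated receptor gene OSCAR averaged 4.75 and 4.41 in B-K562 cells and 1082 ± 144 and 897 ± 139 (SD, n = 3) in G-K562 cells. These genes were chosen by a rule that asked for no overlap between the lines. BRINP3, the trypsin inhibitor gene SPINK1 and the zinc finger gene ZIC1 were at 0 in all 3 B-K562 libraries. With a floor of 3 per library they were at least 106-fold, 62.4-fold and 46.8-fold higher in G-K562 cells. The butyrylcholinesterase gene BCHE (fitted log2 difference 7.51) and BOD1L2, with a single B-K562 read, were also among the 12 largest increases, genes with LOC or LINC symbols left aside.

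The largest decreases, chosen among genes with a mean of at least 100 in B-K562 libraries, were in genes with few or no counts in G-K562 libraries. ACTL8 (Entrez 81569, chromosome 1, 17712000 to 17827063), an actin-like gene of the cancer/testis group, was at 1234, 1337 and 1299 in B-K562 libraries and at 2, 3 and 1 in G-K562 libraries. V-K562 libraries held 49 to 67, so that B-K562 cells stood highest of the 3 lines (log2 difference between the BASP1 lines -8.81). CYB5A (Entrez 1528, chromosome 18, 74253292 to 74292016), the gene of microsomal cytochrome b5, was at 323, 315 and 308 in B-K562 libraries and at 0 in every G-K562 library. It was at least 105-fold lower in G-K562 cells by the same floor. MS4A4A, a membrane protein gene of monocytes and macrophages, was at 978, 920 and 936 in B-K562 and at 1, 5 and 2 in G-K562 libraries.

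Some of the 12 largest decreases, chosen in the same way, were erythroid. AHSP, the chaperone of free alpha globin, was at 1763, 1617 and 1550 in B-K562 and at 1, 11 and 8 in G-K562 libraries (log2 difference -8.10, standard error 0.52). CA1, the carbonic anhydrase of red cells, was at 3460, 3344 and 3389 in B-K562 and 19, 14 and 23 in G-K562 libraries (-7.46, standard error 0.15). The other large decreases were in genes of unlike function. SLIT2, a secreted axon guidance ligand, was at 458, 467 and 504 in B-K562 and at 4, 2 and 0 in G-K562 libraries. RYR2, the cardiac calcium release channel gene, averaged 567 ± 20.5 in B-K562 and 5.0 ± 1.0 in G-K562 cells (SD, n = 3). B3GAT1, the enzyme that makes the CD57 epitope, averaged 615 and 6.0, and SLC18A2, the vesicular monoamine transporter, 384 and 3.33. CTAG2, DPY19L2P1 and FAM84A each had a single read in the G-K562 libraries, against means of 400.3, 233 and 116 in B-K562 cells. CTAG2 has near-identical copies on chromosome X and DPY19L2P1 is a pseudogene, so that unique reads may fall short of their levels.

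A stricter rule asked for genes on in one BASP1 line and off in the other, with at least 50 in every library of the first and at most 5 in every library of the second. On in G-K562 cells only were 43 genes (0.286% of those tested), and on in B-K562 cells only were 28 (0.186%). The first set held the cytokine and chemokine genes CSF2, IL10 and CXCL10. CSF2, the gene of GM-CSF, was at 2, 1 and 3.1 in B-K562 and 227, 190 and 270 in G-K562 libraries, and CXCL10 was at 2, 1 and 2 against 293, 360 and 262. FCGR1A, the high-affinity IgG receptor gene of monocytes, was at 0 in all B-K562 libraries and at 75, 83 and 120 in G-K562 libraries. It also held the homeobox genes LHX1 and LHX3, with LHX1 at 2, 3.1 and 4.1 against 209, 260 and 293, and the circadian repressor gene BHLHE41. The second set held the transcription factor genes DACH1, OTP and VENTX, and the cancer/testis genes ACTL8, CTAG2 and MAGEB10. DACH1 was at 90.5, 82.4 and 102 in B-K562 libraries and at 0, 0 and 1 in G-K562 libraries. These genes were chosen by their values, which are given as a description with no test.

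The factors with which the study links BASP1 did not move together. The study reported the levels of MYC, RELA, TFCP2, POU3F2, YY1 and CTCF as unchanged in either BASP1 line against control cells. The values here set the BASP1 lines against each other, which is another comparison. WT1 (Entrez 7490, chromosome 11, 32387775 to 32435535) was at 1371, 1392 and 1407 in B-K562 libraries and at 3218, 2906 and 3297 in G-K562 libraries. The lines did not overlap, and the log2 difference was 1.17 (standard error 0.05, adjusted p = 9.4e-09), while V-K562 libraries held 1153 to 1286. MYC (Entrez 4609, chromosome 8, 127736069 to 127741434) was at 6230, 5974 and 6370 in B-K562 and at 2145, 2161 and 2078 in G-K562 libraries (log2 difference -1.54, standard error 0.04, adjusted p = 3.4e-10). POU3F2, a neural POU-domain factor, was at 124, 142 and 139 in B-K562 and 58, 70 and 59 in G-K562 libraries. CTCF, TFCP2 and YY1 passed the adjusted p but not the 2-fold limit, at -0.43, -0.36 and 0.36. RELA, the p65 subunit of NF-kappaB, was not distinguished between the lines (0.02, standard error 0.05, adjusted p = 0.72). Of the 11 members of the MYC network tested, MYC and MXI1 were lower and none was higher, and MAX, the partner of MYC, was at -0.88. MXI1, at -1.05, lay close to the 2-fold limit, and without B-K562 replicate 1 the number of lower members was 1.

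The 4 WT1 target genes named by the study were all above 0, with a median log2 difference of 2.41, and 3 of them were called higher. AREG and VDR had been measured in such lines before, so their direction is no independent evidence. The study also displayed all of these genes, EREG and VEGFA among them, from the same RNA-seq libraries. The direction of EREG and VEGFA, and the median of the list, are therefore no independent evidence either. AREG (Entrez 374, chromosome 4, 74445098 to 74455009), the gene of the EGF-family ligand amphiregulin, was at 53.9, 57.0 and 53.9 in B-K562 and 457, 479 and 468 in G-K562 libraries. The libraries of each line lay close together and far from the other line (3.07, standard error 0.09, adjusted p = 6e-10). EREG, the neighbouring gene of epiregulin, was at 0, 5.1 and 12.2 in B-K562 and 64, 86 and 78 in G-K562 libraries. Its B-K562 libraries spread widely, and the log2 difference was 4.15 with a standard error of 0.73 (adjusted p = 0.00035). AREG and EREG lie in a segment of chromosome 4 whose genes had a median of 0.59, as given below. VEGFA, the vascular endothelial growth factor gene, averaged 3490 ± 60.5 in B-K562 and 11766 ± 290 in G-K562 cells (SD, n = 3), both below the 16384 to 17868 of V-K562 cells. VDR, the vitamin D receptor gene, was at 178, 204 and 173 against 257, 255 and 281, a difference under 2-fold (0.51, adjusted p = 0.00054). Of 7 EGF-family ligands and receptors tested, 5 were higher and none lower. The receptor gene ERBB3 was at 232, 234 and 276 in B-K562 and 820, 706 and 939 in G-K562 libraries, and ERBB2 was at 0.00.

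Of the 8 relatives of BASP1 and enzymes of N-myristoylation, MARCKS was higher and MARCKSL1 lower in G-K562 cells. MARCKS (Entrez 4082, chromosome 6, 113857335 to 113863475), a myristoylated protein that binds PIP2 as BASP1 does, was at 47.8, 15.3 and 25.4 in B-K562 libraries. It was at 894, 1143 and 1043 in G-K562 libraries and 54 to 85 in V-K562 libraries. MARCKSL1 went the other way, from a mean of 9795 ± 316 in B-K562 to 3381 ± 362 in G-K562 cells (SD, n = 3). Without B-K562 replicate 1, G-K562 replicate 1 or G-K562 replicate 3 a further member was called higher, for a count of 2. The myristoyltransferase genes NMT1 and NMT2 were at -0.32 and 0.66. Among 11 histone deacetylase genes, HDAC9 and HDAC5 were higher and none was lower, where 17.3% of all genes were higher. HDAC5 was at 1821, 1788 and 1816 against 3949, 3544 and 3775, and HDAC1 was at -0.54 (standard error 0.04, adjusted p = 2e-07), a difference under 2-fold. Of 11 members of Polycomb repressive complex 2, which places H3K27me3, none was called, and the median was -0.40, with EZH2 at -0.72 and SUZ12 at 0.15. Of 22 kinases, phosphatases and phospholipases that make or use PIP2, PLCB4 alone was called, at 30.5, 35.6 and 34.6 in B-K562 and 2, 4 and 2 in G-K562 libraries.

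**Figure D2:**
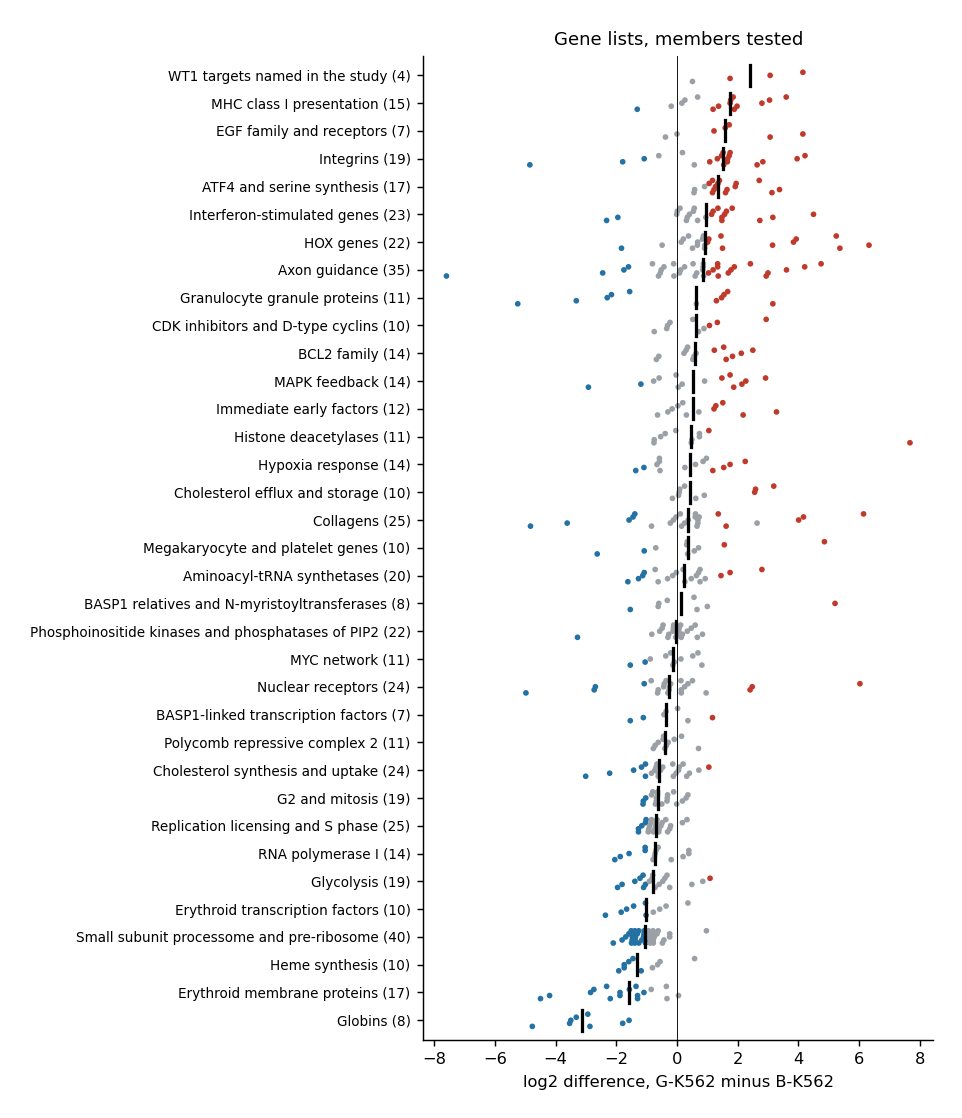
Each point is a member of a gene list, at its log2 difference between G-K562 and B-K562 cells, in red where it was called higher in G-K562 cells, in blue where it was called lower and in grey otherwise. Black bars are medians and the number of members tested stands in parentheses. Lists count only members that passed the filter, which were 8 of 10 globins, 7 of 15 EGF-family genes, 35 of 63 axon guidance genes, 22 of 39 HOX genes, 25 of 42 collagens and 19 of 26 integrins. The globins have the lowest median, at -3.13, and the 4 WT1 targets the highest, at 2.41.

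Erythroid genes were called lower in each of 4 lists, with no member called higher. Red cell precursors make globin chains and heme, insert them into hemoglobin and build a spectrin skeleton beneath the membrane, under factors such as GATA1, TAL1 and KLF1. Of 10 globin genes listed, 8 were tested and all 8 were lower in G-K562 cells. Their median was -3.13 on the log2 scale, against -0.03 for all genes. Embryonic zeta globin, HBZ (Entrez 3050, chromosome 16, 142053 to 154505), was at 13326, 13090 and 12968 in B-K562 libraries and at 466, 622 and 385 in G-K562 libraries. The V-K562 libraries lay between, at 2223 to 3333, and the log2 difference of -4.77 (standard error 0.13) was the largest of the globins. Fetal gamma globin, HBG2, was at 63100, 62102 and 59205 in B-K562 and 5396, 5597 and 5347 in G-K562 libraries. HBG1 and HBG2 are near-identical copies between which unique reads divide unevenly, so their sum was also taken. It was 11.3-fold lower in G-K562 cells, and that of the copies HBA1 and HBA2 9.68-fold lower. Embryonic epsilon globin, HBE1, differed least, with means of 66786 ± 1060 and 22517 ± 3437 (SD, n = 3).

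Of 10 heme synthesis genes, 6 were lower and none was higher, with a median of -1.31. CPOX and FECH, which carry out late steps of the pathway in mitochondria, were among them. FECH was at 6015, 5955 and 5752 in B-K562 and 1771, 1718 and 1827 in G-K562 libraries, and CPOX had a log2 difference of -1.92. ALAS2, the erythroid form of the first enzyme, was at -1.45, and ALAD was above 0, at 0.58. Of 10 erythroid transcription factor genes, 6 were lower and none higher. KLF1 (Entrez 10661, chromosome 19, 12884422 to 12887203), the activator of adult globin transcription, was at 4827, 4765 and 4443 in B-K562 and 1019, 951 and 781 in G-K562 libraries. GFI1B and LMO2 were at -1.84 and -1.66. GATA1 itself was at -0.78 (standard error 0.04, adjusted p = 3.9e-08), under the 2-fold limit, and MYB was at 0.36.

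Of 17 genes of erythroid membrane proteins, 13 were lower and none higher, with a median of -1.57. SPTB (Entrez 6710, chromosome 14, 64746283 to 64879893), for beta spectrin, was at 6436, 6742 and 6897 in B-K562 and at 317, 300 and 268 in G-K562 libraries. EPB42 (Entrez 2038, chromosome 15, 43197227 to 43225861), for protein 4.2, was at 696, 705 and 715 against 33, 36 and 44. For both the lines were separated by far more than the spread between cultures, and V-K562 values lay between them. EPB41 and the transferrin receptor gene TFRC, which dividing cells of many kinds also transcribe, were at 0.05 and -0.33. Summed, the near-identical copies RHD and RHCE were 2.69-fold lower.

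GATA1 binds the motif AGATAA, and that motif is shown in 2 promoters of this group, those with the largest differences among called members that hold it upstream of the start. The windows are the 250 bases before the RefSeq start (GRCh38.p14), written 5′ to 3′ along the gene, with AGATAA, or its reverse complement, in capitals. The starts are those of the promoter table, which need not be the outer end of the gene models counted. That of EPB42 lies inside its gene model, downstream of its outer start.
SPTB, chr14:64879908-64880157, minus strand: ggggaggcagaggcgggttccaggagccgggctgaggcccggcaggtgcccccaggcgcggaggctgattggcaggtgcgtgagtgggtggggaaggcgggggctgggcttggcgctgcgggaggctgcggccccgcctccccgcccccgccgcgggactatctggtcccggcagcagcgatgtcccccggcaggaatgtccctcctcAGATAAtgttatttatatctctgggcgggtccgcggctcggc
EPB42, chr15:43221019-43221268, minus strand: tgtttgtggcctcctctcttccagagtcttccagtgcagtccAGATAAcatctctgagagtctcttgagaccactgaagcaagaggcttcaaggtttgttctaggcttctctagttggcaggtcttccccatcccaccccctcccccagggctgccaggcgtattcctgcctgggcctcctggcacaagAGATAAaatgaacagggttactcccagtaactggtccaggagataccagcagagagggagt
In the whole windows of 300 bases, 250 before and 50 after the start, AGATAA on either strand was found in 8 of the 13 erythroid membrane promoters matched (61.5%), in 5.86% of the 11606 promoters of genes tested and in 10.5% of all 27305 promoters in the table. Among all called genes the shares hardly differed by direction, at 8.25% of the lower and 8.04% of the higher ones. All 8 genes with the motif were lower in G-K562 cells: EPB42, EPOR, GYPB, GYPE, KEL, RHCE, RHD and SPTB. In the whole list, 13 of 17 genes were lower. GYPB with GYPE and RHCE with RHD are copies of one another and share promoter sequence.

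**Figure D3:**
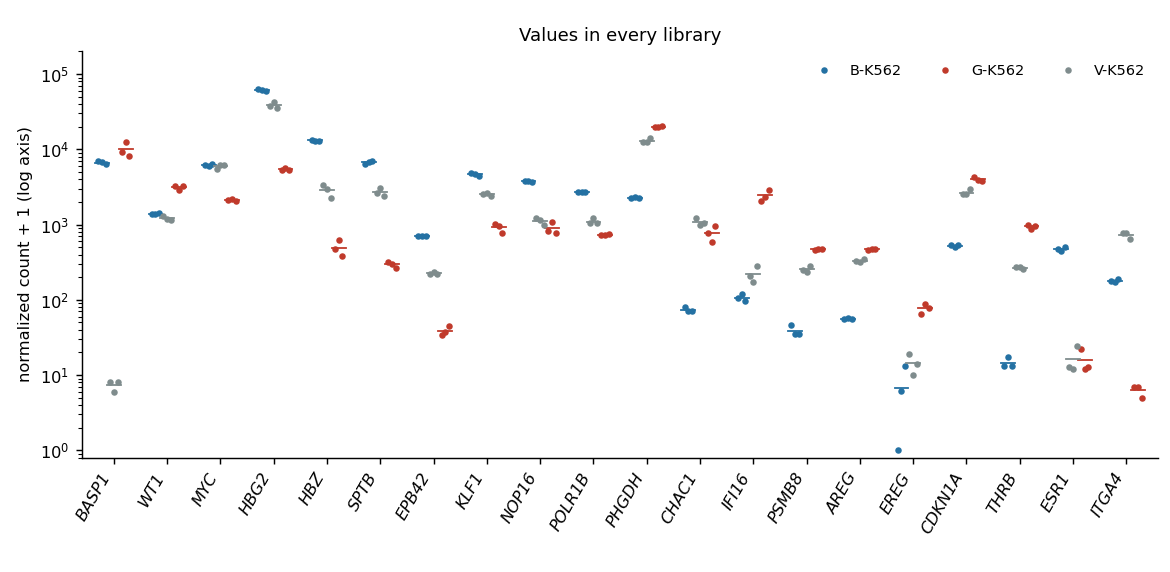
Points are the values of each library plus 1 on a log axis for 20 genes, with B-K562 in blue, V-K562 in grey and G-K562 in red, and bars are the means of 3 libraries. BASP1 is at 5 to 7 in V-K562 libraries and at 6294 or more in every library of both other lines. The erythroid genes HBG2, HBZ, SPTB, EPB42 and KLF1 are highest in B-K562 and lowest in G-K562 cells, and PSMB8, AREG, CDKN1A and THRB run the other way.

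Genes of other blood lineages divided. Of 11 granule proteins and granulocyte factors tested, 5 were higher and 5 lower in G-K562 cells. The eosinophil genes EPX (eosinophil peroxidase) and PRG2 (major basic protein) were lower. EPX was at 264, 277 and 285 in B-K562 libraries, 7, 5 and 7 in G-K562 libraries and 3 to 10 in V-K562 libraries, so that B-K562 cells alone held it at more than 10. PRTN3, the neutrophil proteinase 3 gene, was higher, at 10.2, 5.1 and 4.1 in B-K562 and 68, 64 and 54 in G-K562 libraries. Of 10 megakaryocyte and platelet genes, 2 were higher, PPBP among them, and TUBB1 and ITGA2B were lower. PPBP was at 1.56, and TUBB1, the platelet beta tubulin gene, averaged 1430 ± 54.3 against 233 ± 49.4 (SD, n = 3). Without G-K562 replicate 3 the number of lower members was 1.

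Among genes of ribosome production all calls were lower in G-K562 cells, and many members did not reach the 2-fold limit. The small subunit processome and its partners cut and fold the ribosomal RNA precursor in the nucleolus, and RNA polymerase I transcribes it. Of 40 pre-ribosome genes tested, 22 were lower by at least 2-fold and none was higher, with a median of -1.06. By the adjusted p alone 39 of the 40 were lower, where the share over all genes was 41.6%, and GLTSCR2, at 0.97, was the exception. NOP16 (Entrez 51491, chromosome 5, 176383937 to 176388762) was at 3823, 3832 and 3660 in B-K562 and 819, 1067 and 778 in G-K562 libraries. NOC2L was at 17723, 18316 and 17678 against 5037, 5221 and 5046, and NOC3L averaged 1891 ± 43.4 against 588 ± 45.7 (SD, n = 3). Of 14 RNA polymerase I genes, 5 were lower and none higher, with a median of -0.73. The polymerase subunit genes CD3EAP, POLR1B and POLR1A were at -2.05, -1.87 and -1.58, and the factor UBTF at -0.19, while TAF1C, TAF1D and POLR1D were above 0, at 0.20, 0.39 and 0.39. POLR1B was at 2673, 2693 and 2740 in B-K562 and 719, 732 and 760 in G-K562 libraries, with V-K562 values of 1037 to 1213.

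The E-box CACGTG, the site of MYC with MAX, is shown in the same way in 2 pre-ribosome promoters, chosen by the same rule, with the motif in capitals.
UTP20, chr12:101279855-101280104, plus strand: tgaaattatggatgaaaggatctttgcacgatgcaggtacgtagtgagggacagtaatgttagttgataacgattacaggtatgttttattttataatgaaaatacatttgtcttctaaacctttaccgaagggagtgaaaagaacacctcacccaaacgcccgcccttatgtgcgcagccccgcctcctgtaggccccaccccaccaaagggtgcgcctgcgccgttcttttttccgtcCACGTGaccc
UTP4, chr16:69132399-69132648, plus strand: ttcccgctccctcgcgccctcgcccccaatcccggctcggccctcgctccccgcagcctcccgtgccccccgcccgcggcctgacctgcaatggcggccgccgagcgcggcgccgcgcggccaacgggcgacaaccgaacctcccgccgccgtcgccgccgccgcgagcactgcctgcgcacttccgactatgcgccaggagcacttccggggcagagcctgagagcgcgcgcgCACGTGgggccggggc
UTP20 and UTP4 were at -1.48 and -1.39. In the windows of 300 bases the E-box, a palindrome that reads alike on both strands, was found in 14 of 35 pre-ribosome promoters (40%), in 9.87% of promoters of genes tested and in 7.43% of all. In 9 of the 14 it lay only within 50 bases after the start or across it. Of the 14 genes, 9 were lower by at least 2-fold, as were 22 of all 40 in the list. Among all called genes, 12.9% of the lower ones and 6.69% of the higher ones held the E-box.

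Few genes of cell division passed the 2-fold limit. Of 25 replication licensing and S phase genes, 5 did, all lower, where 12.4% of all genes were lower. By the adjusted p alone 23 were lower, where the share over all genes was 41.6%. ORC1 and ORC5, subunits of the origin recognition complex, were both at -1.27, and CDT1 and CCNE2 were above 0. Of 19 genes of G2 and mitosis, 3 were lower, against the same 12.4% of all genes: CDC20, BUB1 and BUB1B, each near -1.1. MKI67, the proliferation marker, was at -0.64, and TOP2A, AURKB and UBE2C were above 0, at 0.30, 0.18 and 0.36. Among 10 CDK inhibitors and D-type cyclins, CDKN1A, CCND1 and CDKN2D were higher and none was lower. CDKN1A (Entrez 1026, chromosome 6, 36676460 to 36687339), the gene of p21, was at 530, 497 and 534 in B-K562 and 4292, 3905 and 3816 in G-K562 libraries (2.94, standard error 0.06, adjusted p = 5.9e-11). Of 14 BCL2 family genes, 6 were higher and none lower, with BCL2A1 at 2.50, BCL2 at 2.12 and the BH3-only gene PMAIP1 at 1.83. BCL2 was at 12.2, 21.4 and 13.2 against 64, 67 and 77.

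Of 19 glycolysis genes, 7 were lower and 1 was higher, with a median of -0.80. The glucose transporter gene SLC2A1 was at 9488, 9791 and 9891 in B-K562 and 2839, 2967 and 2512 in G-K562 libraries, and the hexokinase genes HK2 and HK1 were at -1.96 and -1.39, while another glucose transporter gene, SLC2A3, was at 0.85 and under the 2-fold limit. PKM, for the pyruvate kinase of the last step, was the member called higher, at 1.09. Of 14 hypoxia response genes, 4 were higher and 2 lower, led by ADM at 2.25 and VEGFA, and without G-K562 replicate 3 the lower members numbered 1. Of 24 genes of cholesterol synthesis and uptake, 6 were lower and 1 was higher, with a median of -0.58. HMGCS1, an early enzyme of the pathway, was at 15591, 14818 and 15503 against 3306, 3574 and 3017, and SQLE, the squalene epoxidase gene, had a log2 difference of -1.43. Of 10 efflux and storage genes, 3 were higher and none lower. They were the transporter genes ABCG1 and ABCA1 and the lysosomal carrier NPC2, which was at 459, 445 and 441 against 2584, 2774 and 2754.

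The amino acid and stress genes controlled by ATF4 were higher. ATF4 is translated when the kinases of the integrated stress response are active, and it transcribes genes of serine, asparagine and cystine supply. All 17 members tested were above 0 with an adjusted p of at most 0.05, against 38.8% of all genes, and 14 passed the 2-fold limit, with a median of 1.35. PHGDH (Entrez 26227, chromosome 1, 119711737 to 119744226), the first enzyme of serine synthesis, was at 2273, 2314 and 2243 in B-K562 and 19800, 19743 and 20361 in G-K562 libraries (3.13, standard error 0.04, adjusted p = 5.7e-12). CHAC1, which degrades glutathione, was at 78.3, 69.2 and 70.2 against 782, 593 and 950, and DDIT4, an inhibitor of mTORC1, averaged 2379 ± 109.5 against 15656 ± 2031 (SD, n = 3). For CHAC1 and DDIT4 the V-K562 values, 983 to 1241 and 19114 to 20959, were above those of G-K562 cells, and B-K562 cells stood apart on the low side. The ATF4 transcript itself was at 0.56. Of 20 aminoacyl-tRNA synthetase genes, 3 were higher and 4 lower, where 17.3% of all genes were higher and 12.4% lower. WARS, for tryptophan, was at 8274, 8094 and 8239 in B-K562 and 57795, 55414 and 58043 in G-K562 libraries, SARS was at 1.75, and FARSB was lower at -1.62.

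Calls among interferon-stimulated and antigen presentation genes were more often higher than lower. Type I and type II interferons act through IRF and related factors on the sequence called ISRE, and MHC class I molecules carry peptides cut by the immunoproteasome to the surface. Of 23 interferon-stimulated genes, 11 were higher and 2 lower, with a median of 0.95. IFI16 (Entrez 3428, chromosome 1, 158999973 to 159055155), a DNA sensor, was at 105, 117 and 96.6 in B-K562 and 2079, 2341 and 2899 in G-K562 libraries, with V-K562 values of 172 to 279. IFI27 and RSAD2 were at 3.16 and 2.73. The members did not move as 1 group, since ISG15 was not distinguished (0.10, standard error 0.08, adjusted p = 0.27). Of 15 genes of MHC class I presentation, 10 were higher and NLRC5, a transactivator of these genes, was lower, with a median of 1.75. PSMB8 (Entrez 5696, chromosome 6, 32840717 to 32844935) and its neighbour PSMB9 encode catalytic subunits of the immunoproteasome. PSMB8 was at 44.7, 34.6 and 34.6 against 455, 471 and 477, and PSMB9 at 51.9, 54.9 and 49.8 against 431, 474 and 411. HLA-B, whose reads are limited by the match of its alleles to the reference, was at 55.9, 54.9 and 55.9 against 367, 419 and 392, and B2M, its light chain, was at 1.19. Of markers of monocytes and macrophages, CD68 was higher at 1.23 and CD14 was at -0.32, and their summed level was 1148 to 1257 in B-K562, 2639 to 2809 in G-K562 and 3112 to 3199 in V-K562 libraries. Its part in these results was not tested.

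The core of the ISRE, written here as GAAA, any 2 bases and GAAA, is shown in 2 promoters of the MHC class I list chosen by the same rule, with the motif or its reverse complement in capitals.
TAP1, chr6:32853705-32853954, minus strand: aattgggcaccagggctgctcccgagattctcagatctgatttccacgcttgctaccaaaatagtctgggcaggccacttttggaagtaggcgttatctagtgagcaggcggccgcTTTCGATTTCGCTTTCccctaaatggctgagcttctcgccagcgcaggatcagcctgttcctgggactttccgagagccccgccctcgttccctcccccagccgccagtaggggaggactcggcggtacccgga
TAPBP, chr6:33314079-33314328, minus strand: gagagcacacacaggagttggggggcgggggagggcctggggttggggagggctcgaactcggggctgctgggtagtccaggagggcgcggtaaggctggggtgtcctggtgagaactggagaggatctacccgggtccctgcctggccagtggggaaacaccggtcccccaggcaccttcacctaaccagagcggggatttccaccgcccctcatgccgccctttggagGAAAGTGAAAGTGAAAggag
In both promoters 2 overlapping matches form the run in capitals. TAP1, a chain of the peptide transporter, was at 1.85 and TAPBP, its bridge to MHC class I, at 1.37. The core was found in 6 of 13 MHC class I promoters (46.2%) and in 10 of 18 promoters of interferon-stimulated genes (55.6%), against 2.92% of promoters of genes tested and 3.65% of all. Of the 6 and the 10 genes that held it, 4 and 5 were called higher and none lower. In the whole lists, 10 of 15 and 11 of 23 genes tested were called higher, and 1 and 2 lower. Among all called genes the core stood in 4.46% of the promoters of higher genes and 2.5% of those of lower genes. The WT1 and EGR motif GNGGGNGNG, in contrast, was at much the same share in promoters of higher (63.9%), lower (60%) and all genes tested (64.9%).

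Genes of growth factor feedback and early response were uneven. MAPK feedback genes, which encode phosphatases and ETS factors induced by ERK, counted 6 higher and 2 lower of 14. DUSP6, the ERK phosphatase gene, was lower at 26.4, 21.4 and 20.3 against 4, 2 and 1, whereas IER3 and ETV1 were higher at 2.92 and 2.27. Of 12 immediate early factors, 5 were higher and none lower. EGR3 was at 27.5, 22.4 and 27.5 in B-K562 and 250, 353 and 195 in G-K562 libraries, and FOSB at 474, 608 and 499 against 1340, 2995 and 831. G-K562 replicate 2 was the highest for EGR2, EGR3 and FOSB. Without it the FOSB difference fell from 1.51 to 1.01 and the median of the list from 0.52 to 0.18, while 5 members were still called higher.

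Genes of adhesion, matrix and position are read here against the 17.3% of all genes called higher and the 12.4% called lower. Of 19 integrin genes, 13 were higher and 3 lower, with a median of 1.52. ITGA3, a laminin receptor chain, was at 10.2, 16.3 and 5.1 in B-K562 and 195, 183 and 209 in G-K562 libraries, and ITGAX (CD11c) at 13.2, 21.4 and 10.2 against 234, 237 and 238. ITGA4, a chain of the receptor for VCAM1 and fibronectin, was lower, at 177, 173 and 187 against 6, 6 and 4, with 651 to 784 in V-K562 libraries. Collagens divided, with 5 higher and 5 lower of 25. COL15A1 (Entrez 1306, chromosome 9, 98943348 to 99070792) was at 253, 260 and 296 against 19368, 16913 and 21372, and COL6A3 averaged 495 ± 52.9 against 9128 ± 2662 (SD, n = 3). COL21A1 was lower, at 132, 119 and 144 against 4, 9 and 1. B-K562 replicate 1 stood apart for the fibroblast markers COL3A1 and DCN, at 585 and 65.1 against 2 to 4.1 and 13.2 to 16.3 in the other libraries of that line. The summed fibroblast markers ran from 919 to 1866 across B-K562 libraries and from 1294 to 1412 across G-K562 libraries, and without B-K562 replicate 1 the number of collagens called higher was 8. The summed epithelial markers, mostly the keratins KRT8, KRT18 and KRT19, ran from 25729 to 26236 and from 42060 to 43418, and their part in these results was not tested.

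Of 35 axon guidance genes, 14 were higher and 4 lower, with a median of 0.85. The receptor gene ROBO2 was at 9.2, 10.2 and 11.2 in B-K562 and 301, 272 and 329 in G-K562 libraries, and SEMA3A, a repulsive ligand, at 32.5, 27.5 and 32.5 against 502, 610 and 659, opposite in direction to SLIT2. Of 22 HOX genes, which give position along the body axis, 10 were higher and HOXC12 was lower. The neighbours HOXA2 and HOXA3 were among the higher ones. HOXA2 was at 0, 0 and 2 against 49, 66 and 49, and HOXA3 at 4.1, 8.1 and 9.2 against 346, 315 and 303. The antisense transcripts HOTAIRM1 and HOXA-AS2 overlap this region and were on in G-K562 cells only. The strand setting of the counting is not given in the sources used here, so that sense and antisense reads may be mixed. Of 24 nuclear receptor genes, 3 were higher and 4 lower, where 17.3% of all genes were higher and 12.4% lower. THRB (Entrez 7068, chromosome 3, 24117153 to 24495281), for a thyroid hormone receptor, was at 12.2, 16.3 and 12.2 against 986, 876 and 970. ESR1 (Entrez 2099, chromosome 6, 151690496 to 152103274), for estrogen receptor alpha, was at 467, 451 and 510 in B-K562 libraries, 21, 11 and 12 in G-K562 libraries and 11 to 23 in V-K562 libraries.

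The ATAC-seq libraries of the same lines gave a measure that the RNA-seq calls did not use. ATAC-seq marks accessible DNA by transposase cutting, and the value of a region was the highest pileup of tags at a peak summit within it, scaled between libraries. A region within 1000 bp of the gene start was found for 11836 of the genes tested, of which 5.8% had a region higher in G-K562 cells and 4.52% a lower one, at an adjusted p of at most 0.05 and at least 1.5-fold. Over all 51237 regions tested, near starts or not, 12.3% were higher and 17.2% lower. Of 1610 genes with more RNA in G-K562 cells, 352 had a higher region (21.9%, 95% Wilson interval 19.9 to 23.9%) and 28 a lower one (1.74%). Of 1289 genes with less RNA, 262 had a lower region (20.3%, 18.2 to 22.6%) and 21 a higher one (1.63%). Among 8937 genes not called the shares were 3.5% and 2.74%. Most genes that differed in RNA thus had no called difference at their start. With a peak required in all 6 libraries, 203 of 1259 genes with more RNA (16.1%) had a higher region, against 4.54% of all genes. Of 1092 genes with less RNA, 145 (13.3%) had a lower region, against 3.44% of all genes. The intervals cover counting error over genes, which are not independent replicates.

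**Figure D4:**
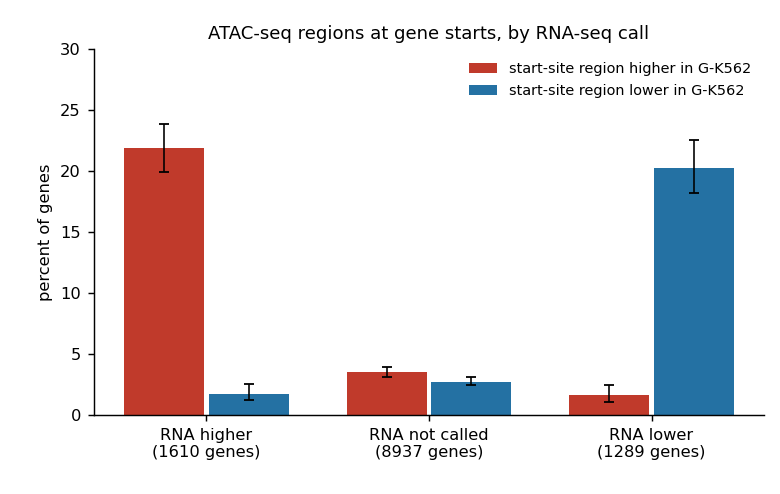
Bars give the percent of genes whose start-site ATAC-seq region was higher (red) or lower (blue) in G-K562 cells, for genes with higher, uncalled or lower RNA, and error bars are 95% Wilson intervals over genes. The bars in the same direction as the RNA reach 21.9% and 20.3%, and those in the opposite direction stay under 2%.

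Libraries with no peak, or a weaker one, at a start were given the lower limit of 17. Where every library of a line stood at this limit, as at THRB, HBZ and GATA1, the difference could only favour the other line. At the WT1 start (chromosome 11, 32434305 to 32434898) the pileup was 63.3, 80.1 and 93.2 in B-K562 and 142, 151 and 144 in G-K562 libraries, with no overlap (log2 difference 0.90, adjusted p = 0.0027). At THRB it was 17 in all B-K562 libraries, none of which had a peak, and 96.8, 66.8 and 80.9 in G-K562 libraries. AREG, EREG, PHGDH, PSMB8, HLA-B, IFI16, CECR2, MUC4, EFEMP1 and HDAC9 likewise had higher regions. Their lists did not all do so: a higher region was called for 2 of the 4 WT1 targets and 1 of 15 ATF4 genes with a region. The counts were 4 of 13 for MHC class I genes and 6 of 19 for interferon-stimulated genes. Of the 15 erythroid membrane genes with a region, 9 had a lower one, against 2 of 5 globins, 2 of 9 heme synthesis genes and 1 of 7 erythroid factors. SPTB was at 68.6, 78.0 and 88.9 against 24.2, 31.5 and 27.3, and HBZ at 110, 108 and 118 against the limit in every G-K562 library. At GATA1, whose RNA differed by less than 2-fold, the region fell from 68.6, 76.9 and 74.8 to the limit. The 40 pre-ribosome genes all had a region and none was called, with a median log2 difference of 0.06 against 0.09 for all genes. At MYC the pileup was 138, 142 and 135 against 129, 134 and 121 (log2 difference -0.11, adjusted p = 0.32).

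Differences were also read along the chromosomes, in segments of 10 Mb with at least 20 genes tested. Of 249 segments, 7 had a median above 0.5 and 9 one below -0.5. The 249 include the mitochondrial genome, which is shorter than 10 Mb, at -0.46. Counts of calls within segments stand beside 17.3% higher and 12.4% lower over all genes. On chromosome 14 beyond 70 Mb, 201 genes had a median of 0.60, 166 were above 0, 68 were called higher and 7 lower. YY1 and WARS lie there. The segment with the lowest median, at -1.01, was chromosome 19 from 20 to 30 Mb, where 23 of 42 genes were lower and 1 was higher. It holds a cluster of KRAB zinc finger genes: 27 genes with ZNF symbols had a median of -1.42 and 16 of them were lower, against a median of -0.27 and 79 lower among 455 ZNF genes elsewhere. These repressors of repeated elements resemble one another closely, and unique reads may undercount them. The segments were singled out by these values, which are a description with no test, and copy number was not measured.

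**Figure D5:**
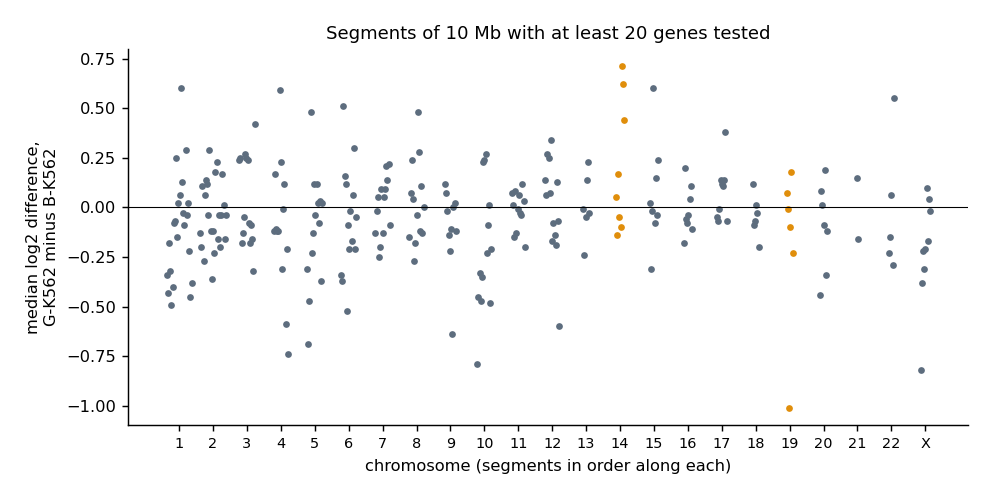
Each point is the median log2 difference between G-K562 and B-K562 cells of the genes in a segment of 10 Mb, with chromosomes along the x axis and chromosomes 14 and 19 in orange. The last segments of chromosome 14 lie above most others, and a segment of chromosome 19 is the lowest, at -1.01. The mitochondrial genome is not shown.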

How the data were processed

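RNA-seq and ATAC-seq were done on 3 cultures of every line. STAR (GRCh38) and Subread (RefSeq genes) gave the authors counts of unique, non-duplicate reads. The authors' deposited signal for RNA-seq is such a count over a DESeq2 size factor, rounded, in 1 table for each BASP1 line with V-K562. For ATAC-seq the authors sampled libraries to equal tags before MACS2 peak calling in each one, and the deposited signal is the pileup at each summit. The authors' own fold changes and p-values were not used.

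The factor for B-K562 values was the mean over the V-K562 libraries of the median ratio between the tables (1.015, 1.015 and 1.020, genes above 2000). Genes reaching 10 in 3 or more of the 6 libraries were tested on log2(value + 1) by limma-trend (limma 3.58.1, R 4.3.3), and p-values were adjusted over all genes by Benjamini-Hochberg. The design assumed normalized values, and no count model was fitted, since rounding leaves the reads only approximately recoverable. ATAC-seq regions were merged where peaks overlapped, scaled by a trimmed mean and set to at least 17, the 5th percentile. Other steps used Python 3.11.15. Scripts were tested on simulated data. Named genes were BASP1, the factors and targets the study names, the 12 largest called differences each way with a mean of at least 100 and no overlap (LOC and LINC symbols left out), the genes on in one line only, and in each list up to 3 called members with the largest differences and up to 2 not called. Other named genes, segments and snoRNAs were chosen after their values were seen. Members and lists were chosen with earlier results of these data known. Promoters are from RefSeq (GRCh38.p14), matched for 11606 of the genes tested. Values of some genes are not reported here, though the counts include them.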

Additional observations from a re-analysis of the deposited data

How the results depend on the processing

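The counts of 2606 higher and 1870 lower genes were 1734 and 1443 when 10 or more was required in all 6 libraries, which leaves out genes silent in a line, and 5837 and 6264 by the adjusted p alone. Leaving out 1 library at a time gave 2542 to 2645 higher and 1818 to 1944 lower. The replicate block gave 2614 and 1871. Same-numbered libraries did not clearly deviate together, with correlations of -0.075, -0.064 and 0.080 over 11290 genes, against -0.130 to 0.152 for differently numbered ones. No pairing was seen, but these correlations cannot exclude shared batches. Of the 4476 called genes, between 3176 and 4476 kept their call and none took the opposite one under any alternative. Other scalings moved the median of all genes by at most 0.03. RELA, near 0, changed sign without G-K562 replicate 1 or 3 (range leaving out 1 library -0.00 to 0.06). The ATAC-seq counts of genes with higher RNA, 352 regions higher and 28 lower, were 203 and 14 with a peak required in all 6 libraries, and 552 were higher with equal tags only. Those of genes with lower RNA, 262 lower and 21 higher, were 145 and 13, and with equal tags only 69 were higher and 198 lower. Equal tags moved the shares over all genes with a start-site region from 5.8% to 14.1% higher and from 4.52% to 2.81% lower. Leaving out 1 library gave 293 to 332, 27 to 31, 228 to 241 and 16 to 21.

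Each protein was represented by 1 pool of cells, levels of BASP1 transcript differed, and normalized counts near 10 rest on few reads. ATAC-seq libraries without a called peak are limited to a value of 17 and may have fewer tags.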

Other observations

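Small nucleolar RNAs, which guide the modification and cutting of ribosomal RNA, were listed for 149 genes tested although the libraries were made from polyadenylated RNA. None was higher and 101 were lower in G-K562 cells (67.8%, against 12.4% of all genes), with a median log2 difference of -1.31, and 147 of the 149 were below 0. The box C/D class (93 genes, 67 lower) and the box H/ACA class (56 genes, 34 lower) had medians of -1.35 and -1.23. SNORA73A was at 433, 516 and 479 in B-K562 and 58, 71 and 66 in G-K562 libraries, and its neighbour copy SNORA73B at 327, 411 and 342 against 48, 58 and 54. V-K562 libraries lay between, at 107 to 124 for SNORA73A and 96 to 115 for SNORA73B. The 149 genes together took up 0.0345 to 0.0389% of all values in B-K562 libraries and 0.0145 to 0.0187% in G-K562 libraries. Most lie within introns of host genes, so reads of unspliced host RNA and of the snoRNA cannot be told apart.

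Transcripts of the mitochondrial genome were lower as well. The 13 protein genes were all below 0, with a median of -0.46 and 1 called (ND6), and took up 5.73 to 6.05% of all B-K562 values and 4.56 to 4.72% of all G-K562 values. The ribosomal RNA genes were both called lower: RNR1 was at 28200, 30417 and 31361 in B-K562 and 9684, 12513 and 10190 in G-K562 libraries, and RNR2 was at -1.30.

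Long noncoding RNA genes were called higher more often than protein-coding genes, with 24.5% of 1104 against 16.9% of 13168, and 13.9% against 11.6% lower. Genes in the lowest quartile of level had more calls of both kinds, and the classes were not matched for level.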
